A study of Mus musculus with 5 samples.

Results

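The genes described are 9 members of the TALE homeobox class that encode the MEIS, PBX, PKNOX and TGIF proteins: Meis1, Meis2, Meis3, Pbx2, Pbx3, Pbx4, Pknox1, Tgif1 and Tgif2. They were chosen by gene symbol, and each had a single entry among the 31626 genes listed per library. Expression was compared between 3 control and 2 Mll1 knockout RNA-seq libraries of mouse common myeloid progenitors of strain C57Bl/6. All cells had been transformed with the retroviral construct MSCV-MN1-IRES-GFP, which carries the leukaemia cofactor gene MN1, and grew in M3234 medium with FBS, IL3, IL6 and SCF. Control cells were MLL1 flox/flox and had been transduced with a control, whereas knockout cells were MLL1 -/- after transduction with cre, and both were sorted at day 7. No library of Cre-exposed cells with intact Mll1 was analysed here, so Cre and loss of Mll1 cannot be told apart. Whether the replicates are separate mice or cultures is not stated, so p-values measure the spread between these libraries, which may be technical.

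TALE proteins carry a homeodomain with a loop of extra amino acids between its first and second helix. MEIS and PBX proteins bind DNA together with HOX proteins, and MEIS or PKNOX proteins pair with PBX and help to keep it in the nucleus. MEIS1 is best known in blood as the partner of HOXA9 in leukaemia, and the histone methyltransferase MLL1 maintains HOXA gene expression. TGIF proteins are repressors that act on SMAD-dependent and retinoid-dependent transcription.

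The coding sequence around the loop shows how closely the 9 genes are related and is printed because related genes can share reads. Each line gives 60 bases of a GENCODE M21 transcript, 5′ to 3′, and capitals mark the 9 bases of the loop codons.
Meis1: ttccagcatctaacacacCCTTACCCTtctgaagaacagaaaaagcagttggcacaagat
Meis2: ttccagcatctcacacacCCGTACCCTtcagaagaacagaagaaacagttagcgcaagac
Meis3: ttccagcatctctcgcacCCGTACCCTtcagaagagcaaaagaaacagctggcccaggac
Pbx2: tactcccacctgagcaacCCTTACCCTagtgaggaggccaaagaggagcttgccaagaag
Pbx3: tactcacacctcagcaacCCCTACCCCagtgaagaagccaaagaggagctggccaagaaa
Pbx4: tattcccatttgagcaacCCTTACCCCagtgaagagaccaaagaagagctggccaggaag
Pknox1: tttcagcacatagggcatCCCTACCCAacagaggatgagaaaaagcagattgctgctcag
Tgif1: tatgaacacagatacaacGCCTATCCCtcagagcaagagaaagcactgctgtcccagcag
Tgif2: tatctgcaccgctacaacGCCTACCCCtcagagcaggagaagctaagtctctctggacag
In build GRCm38 the first and last of these bases lie for Meis1 at chr11:18905721-18941673 (minus strand), Meis2 at chr2:115921704-116000145 (minus strand), Meis3 at chr7:16182454-16183835 (plus strand), Pbx2 at chr17:34594637-34594696 (plus strand), Pbx3 at chr2:34204801-34204860 (minus strand), Pbx4 at chr8:69866523-69866582 (plus strand), Pknox1 at chr17:31599629-31602830 (plus strand), Tgif1 at chr17:70846193-70846252 (minus strand) and Tgif2 at chr2:156844301-156844360 (plus strand). The stretches of Meis1, Meis2, Meis3 and Pknox1 cross an intron. The loop opened with a GCC codon in both TGIF genes and with a CC-starting codon in the 7 others. Over the 189 bases of the homeobox, Meis1 was 85.2% identical to Meis2 and 85.7% to Meis3, Pbx2 was 82.5% identical to Pbx4 and 81.0% to Pbx3, and Tgif1 was 74.6% identical to Tgif2. Pknox1 stood nearest to the MEIS genes, at 65.1% to 65.6%. No run of 50 bases in any transcript of a member occurred in a transcript of another member.

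The values are FPKM, a fragment number corrected for how long each gene is and how many fragments each library mapped, so levels of different genes are compared per length. How many reads lie behind a value is unknown, but 1 read was worth nearly the same FPKM in every library (0.9795 to 1.018 of control replicate 1). That library stood apart: its correlation across genes with the other controls was 0.949 and 0.9495, against 0.9702 between those controls. Marker genes were called at a limma adjusted p under 0.05, as described below. At that threshold 5.97% of all tested genes fell and 3.82% rose. Markers of the labelled progenitors were detected in every library and did not move together: Cd34 and Flt3 fell, Gata2 rose and Kit was not called. Their sum, mostly Cd34, stood at 783 to 939 FPKM in controls and 340 to 354 FPKM in knockouts. Of the mature neutrophil markers, 11 of 12 were found, none of them at 0 throughout, and 1 of the 10 tested rose (Lcn2). Their sum was mostly S100a8 and S100a9, which together stood at 6064 FPKM in control replicate 1, 638 and 892 FPKM in the other controls and 20257 to 21980 FPKM in knockouts, and neither was called. The other markers of that list summed to 154 to 348 FPKM in controls and 434 to 446 FPKM in knockouts. Of these, Camp, Ltf, Ngp, Mmp8 and Retnlg overlapped between the groups. For Lcn2, Itgam and Cd177 both knockouts lay above all controls. Neither Itgam nor Cd177 was called (limma adjusted p = 0.185 and 0.0684). Promyelocyte markers summed to 2224 to 2691 FPKM in controls and 4923 to 5219 FPKM in knockouts, with 3 of 4 that rose. Mast cell and basophil markers summed to 522 to 756 FPKM against 1101 to 1124 FPKM (1 of 4 rose), and erythroid markers to 21.9 to 48.4 FPKM against 39.6 to 41.3 FPKM (3 of 6 rose). Of these erythroid markers, Alas2 was tested only through the knockouts (4.45 and 4.11 FPKM, against 1.03, 0.780 and 0.558 FPKM in controls). Nothing is thus read from the erythroid count. Monocyte and macrophage markers summed to 51.2 to 99.5 FPKM against 39.5 to 43.1 FPKM (2 of 4 fell), and megakaryocyte markers to 39.1 to 68.5 FPKM against 32.1 to 39.8 FPKM (none of 3 called). Of the 2 that fell, Irf8 reached 1 FPKM only in controls (4.58 to 5.67 FPKM, against 0.778 and 0.826 FPKM in knockouts). It was thus tested only through the controls, so nothing is read from that count. Lymphoid markers summed to at most 1.01 FPKM, with Pax5 at 0 throughout, and stromal markers to at most 3.05 FPKM. In bulk RNA, fewer cells of a type and less RNA per cell cannot be told apart, and the part of these shifts in the results was not tested. Mll1 had control values of 9.67, 7.28 and 7.19 FPKM, against 6.22 and 5.32 FPKM after knockout, lower in both knockouts than in any control. Its log2 change was -0.41 (limma adjusted p = 0.158), and loss of the deleted exons alone may leave a whole-gene FPKM unchanged.

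The comparison asked how TALE gene expression differed when Mll1 was deleted. Meis2 and Pbx4 fell in the knockout libraries, and none of the other 6 tested members passed the test. A gene was tested, with limma on log2(FPKM + 1), where 2 or more libraries reached 1 FPKM, and was called at an adjusted p under 0.05, which kept 8 of the 9 members and 11780 genes in all. Thus 2 of 8 members (25%) fell and none rose, where 5.97% of all tested genes fell, 3.82% rose and 9.79% were called in either direction. All 8 reached 1 FPKM in every library. At an unadjusted p under 0.05 there were 4 of the 8, all lower, and 29.8% of all tested genes. The median log2 change of the 8 was -0.40, against -0.028 over all tested genes. The knockout libraries lay below every control for 4 members (50%) and above every control for 1, while 29.4% of all tested genes lay below, 22.9% above and 52.4% on either side.

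**Figure D1:**
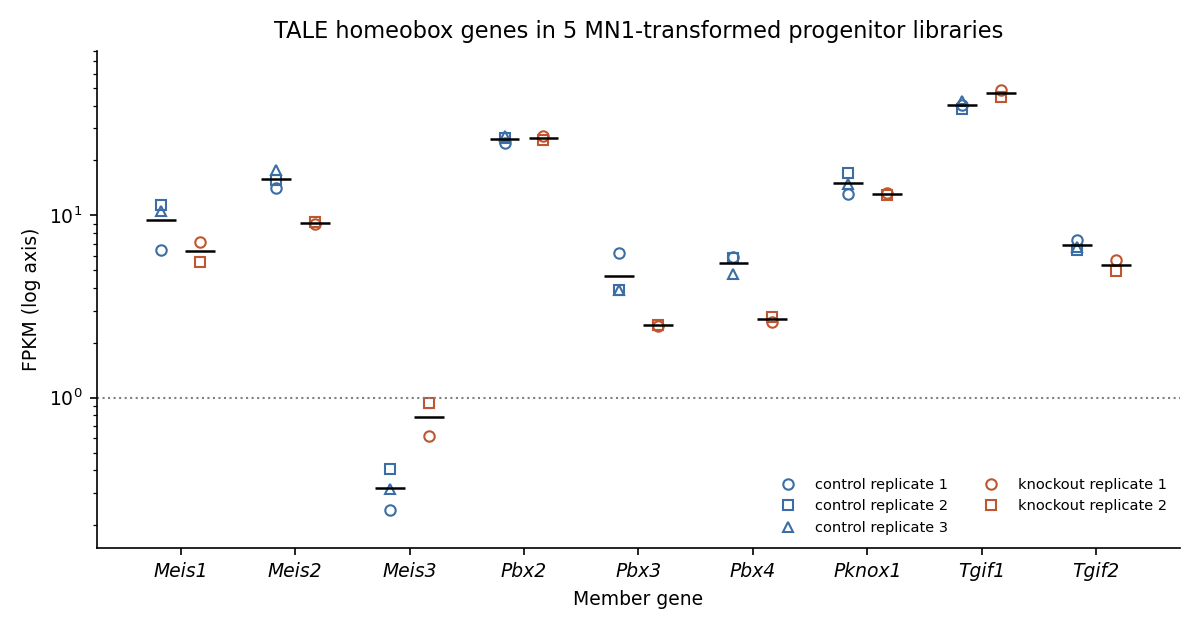
FPKM of each member (log axis) in the 3 control libraries (blue) and 2 knockout libraries (orange), with bars at the group means and a dotted line at 1 FPKM. Control and knockout points separate for Meis2, Meis3, Pbx3, Pbx4, Tgif1 and Tgif2 and overlap for Meis1, Pbx2 and Pknox1.

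The member levels spanned from 0.320 ± 0.0806 FPKM for Meis3 to 40.3 ± 2.16 FPKM for Tgif1 in the controls (SD, n = 3). In descending order of the control means, the genes were Tgif1, Pbx2, Meis2, Pknox1, Meis1, Tgif2, Pbx4, Pbx3 and Meis3. The control ranges of Meis2 and Pknox1 overlapped, as did those of Meis1 and Tgif2 and those of Pbx4 and Pbx3. In the knockouts Pknox1, at 13.1 ± 0.331 FPKM, stood above Meis2, at 9.09 ± 0.102 FPKM (SD, n = 2), and the rest of the order was as in the controls. The knockout ranges of Meis1 and Tgif2 overlapped.

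Among the MEIS genes, Meis2 (chr2:115863064-116065839, GRCm38, minus strand) was the most abundant in every library. In the order of the replicate numbers, Meis2 had control values of 14.1, 15.6 and 17.7 FPKM, against 9.02 and 9.16 FPKM after knockout. Both knockouts lay below all controls, and they differed from each other by less than the controls did. Its mean was 1.74-fold lower, with a log2 change of -0.73 ± 0.11 (SE; limma adjusted p = 0.0271). The call was lost without control 2 or control 3 (limma adjusted p = 0.0918 or 0.0687). Calls over all tested genes dropped from 1153 to 111 or 204 in those fits. The Meis2 change was -0.74 or -0.65 there. It was -0.72 or -0.74 without knockout 1 or knockout 2, where Meis2 was not called either. Those fits hold a lone knockout, assumed to vary like the controls. Leaving out control 1 gave an adjusted p of 0.00983, and testing every gene above 0 gave 0.0607.

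Meis1, the HOXA9 partner, had control values of 6.48, 11.4 and 10.5 FPKM, against 7.15 and 5.53 FPKM after knockout. The groups overlapped: control replicate 1 lay between the knockout values, and the other controls lay above both. The log2 change was -0.49 with a 95% interval from -1.14 to 0.16 (limma adjusted p = 0.269). Without control replicate 1 the change was -0.71 and Meis1 was called (adjusted p = 0.0291). On the log2(FPKM + 1) scale, control replicate 1 differed from the mean of the other controls by -0.67, and the knockout mean differed from that same mean of the other controls by -0.71. That library also held the highest S100a8 and S100a9 sum of the controls, given above, and the part of this in the Meis1 values was not tested. Across 7695 other genes with a mean of at least 5 FPKM and a proper symbol, the profiles nearest to Meis1 over the 5 libraries were those of Mfge8, Alkbh6 and Gemin8, with root mean square differences of 0.082, 0.082 and 0.085 on the centred log2 scale.

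An antisense gene on the opposite strand of Meis1 had lower values in the knockouts, and it was singled out after its values were seen. AL603984.1 (Gm16140 in GENCODE M21) is a non-coding antisense gene at chr11:19009128-19011183, within the Meis1 gene at chr11:18879817-19018985 (GRCm38), and 896 of its 1121 exonic bases overlap Meis1 exons. It had control values of 1.09, 1.26 and 1.47 FPKM, against 0.0864 and 0.144 FPKM after knockout. All controls lay far above both knockouts, with control replicate 1 again the lowest control. Its mean was 11.01-fold lower, a log2 change of -1.02 on the log2(FPKM + 1) scale (limma adjusted p = 0.0252). It passed the filter only through the controls, where it is high, so this p does not support a difference; with every gene above 0 tested, the adjusted p was 0.0331. Leaving out control 1 gave a limma adjusted p of 0.0127, and leaving out control 2 or control 3 gave 0.0918 or 0.0784. The same filter was used in these fits, so their p-values do not support a difference either. Calls over all tested genes dropped from 1153 to 111 or 204 without control 2 or control 3. Without knockout 1 or knockout 2 the change of the antisense gene was -0.99 or -1.06, and it was not called in those fits with a lone knockout. The library kit marked strand, but the use of strand in the counting is not given in the sources used here, so reads of Meis1 and of the antisense gene may not be fully separated. Of the distinct 50-base runs in Meis1 transcripts, 16.98% also occurred in another gene's transcripts on either strand.

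**Figure D2:**
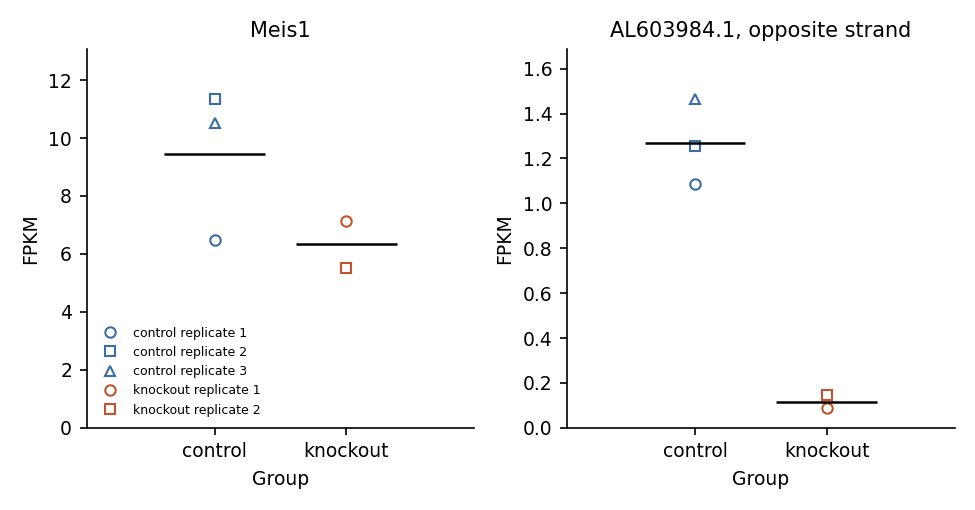
FPKM of Meis1 (left) and of the antisense gene AL603984.1 (right) in each control (blue) and knockout (orange) library, on linear axes from 0, with bars at the group means. Control replicate 1 of Meis1 (6.48 FPKM) lies between the knockouts, whereas the antisense gene separates at 1.09 FPKM or more in controls and 0.144 FPKM or less in knockouts.

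Meis3, the third MEIS gene, was low throughout and did not pass the filter. It had control values of 0.243, 0.404 and 0.314 FPKM, against 0.620 and 0.939 FPKM after knockout. Both knockouts lay above all controls, with a 2.43-fold higher mean. When all genes above 0 were tested, its log2 change was 0.43 and the limma adjusted p was 0.130. Over the 10 ways to split the 5 libraries, an exact two-sided permutation test of Meis3 gave p = 0.1, which is the smallest possible. The same smallest value was obtained for Meis2, Pbx3, Pbx4, Tgif1 and Tgif2, and the exact p was 0.3 for Meis1 and Pknox1 and 0.9 for Pbx2.

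Pbx2 was the most abundant PBX gene and had the smallest change of the tested members. It had control values of 25.1, 26.6 and 27.2 FPKM, against 27.3 and 25.8 FPKM after knockout, and the groups overlapped. The log2 change was 0.013 with a 95% interval from -0.18 to 0.21 (limma adjusted p = 0.929), and its sign turned without control replicate 1 (-0.020) or knockout replicate 1 (-0.026). The exons of Pbx2 share 227 bases with those of Gpsm3 on the same strand.

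Pbx4 (chr8:69832491-69872292, GRCm38, plus strand), a paralog described mainly in testis, had the largest change of the tested members. It had control values of 5.91, 5.80 and 4.79 FPKM, against 2.61 and 2.77 FPKM after knockout. Every control lay above both knockouts, and the mean was 2.04-fold lower. The log2 change was -0.81 ± 0.12 (SE; limma adjusted p = 0.0251). As for Meis2, the call was lost without control replicate 2 or 3 (limma adjusted p = 0.0887 or 0.0552). Calls over all tested genes dropped to 111 or 204 in those fits. The Pbx4 call was also lost with no filter (0.0742) and was kept without control replicate 1 (0.0190). Without knockout replicate 1 or 2 the change was -0.78 or -0.84, and Pbx4 was not called in those fits with a lone knockout. No 50-base run of Pbx4, Pbx3, Meis3 or Tgif1 occurred in another gene's transcripts.

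Pbx3, a PBX partner of HOXA9 in leukaemia, had control values of 6.21, 3.89 and 3.91 FPKM, against 2.46 and 2.52 FPKM after knockout. The knockouts lay below all controls, and control replicate 1 stood well above the other controls. Its mean was 1.88-fold lower, with a log2 change of -0.68 (95% interval -1.20 to -0.15), and it was not called (limma adjusted p = 0.103). Without control replicate 1 the change was smaller, -0.49, and Pbx3 was called (adjusted p = 0.0218). Thus control replicate 1 was the lowest control of Meis1 and the highest control of Pbx3. With that library left out, 4 of the 8 members fell (Meis1, Meis2, Pbx3 and Pbx4), where 18% of all tested genes fell and 11.9% rose. The profiles nearest to Pbx3, by the measure used for Meis1 and among 7696 genes, were those of Dab2 (0.059), Igh-6 (0.066) and Pcnx (0.070).

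**Figure D3:**
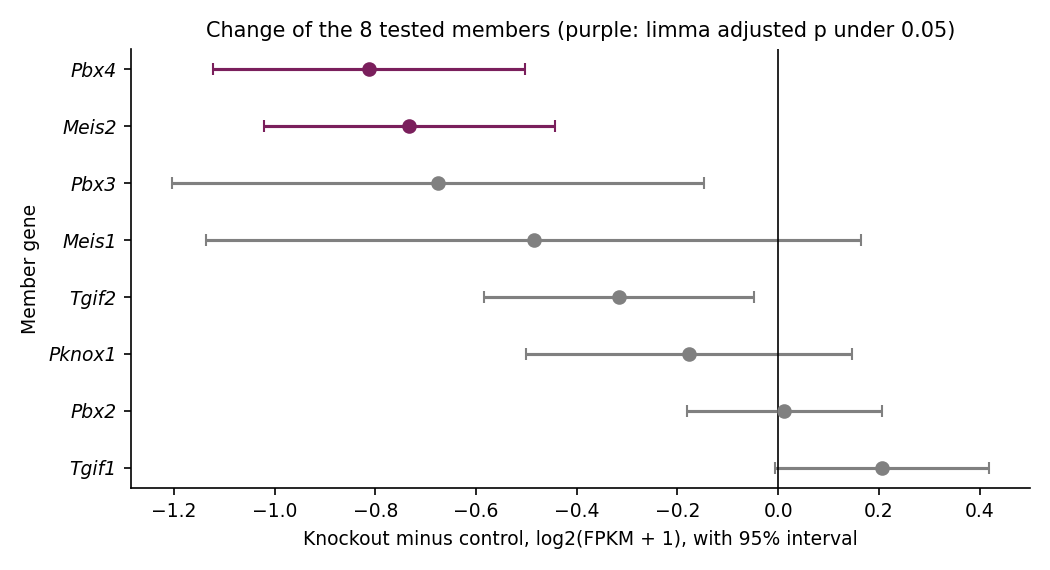
Difference of the knockout from the control mean, as log2(FPKM + 1), for the 8 tested members, with 95% intervals from limma and called members in purple. Pbx4 (-0.81) and Meis2 (-0.73) are the called members, and the intervals of Meis1, Pknox1, Pbx2 and Tgif1 include 0.

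Pknox1, which encodes the PBX partner PREP1, had control values of 13.1, 17.2 and 14.8 FPKM, against 13.3 and 12.9 FPKM after knockout. Control replicate 1 lay between the knockouts, as for Meis1. The log2 change was -0.18 with a 95% interval from -0.50 to 0.15 (limma adjusted p = 0.404).

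The TGIF genes differed in the sign of their estimates, and neither passed the test. Tgif1, the most abundant member, had control values of 40.1, 38.3 and 42.6 FPKM, against 48.5 and 44.8 FPKM after knockout. Both knockouts lay above all controls, with a log2 change of 0.21 (95% interval -0.0063 to 0.42; limma adjusted p = 0.177). Tgif2 had control values of 7.37, 6.48 and 6.73 FPKM, against 5.68 and 4.96 FPKM after knockout. Both knockouts lay below all controls, with a log2 change of -0.32 (95% interval -0.58 to -0.048; adjusted p = 0.121). Values of Tgif2 are uncertain, because 67.5% of its 50-base runs also occur in transcripts of other genes, mainly a non-coding gene on the opposite strand and Tgif2 pseudogenes.

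**Figure D4:**
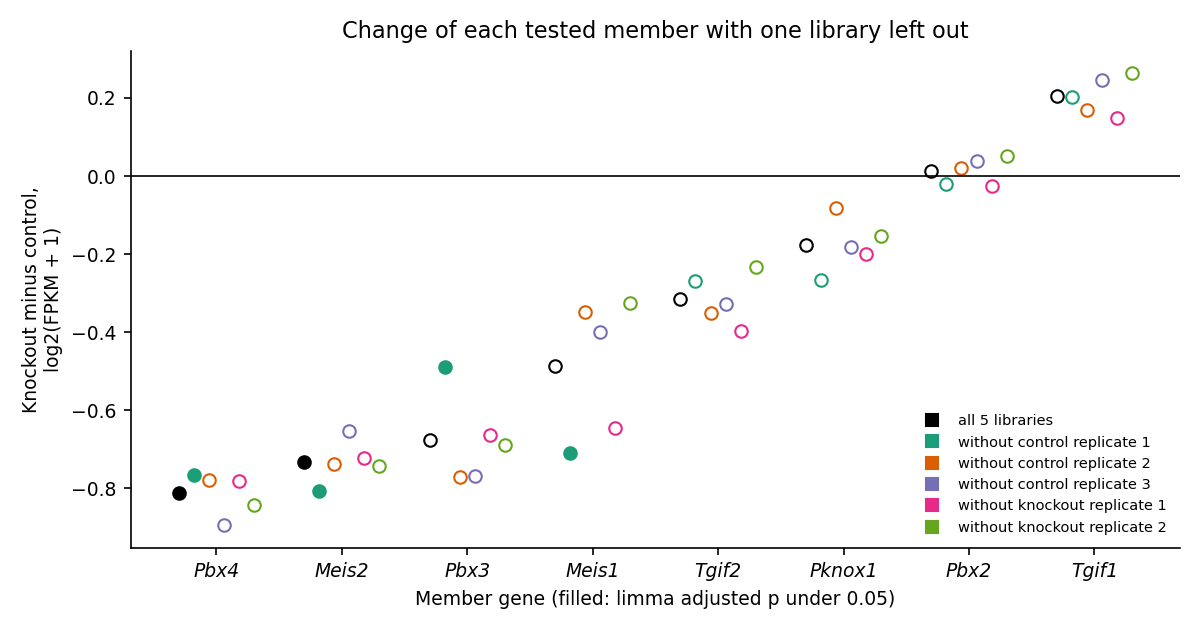
Difference of the knockout from the control mean, as log2(FPKM + 1), for each tested member with all libraries and with each library left out; filled points have a limma adjusted p under 0.05. Meis2 and Pbx4 are filled with all libraries and without control replicate 1, and Meis1 and Pbx3 are filled without control replicate 1 alone.

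Summed over each family, MEIS expression had control values of 20.8, 27.4 and 28.6 FPKM, against 16.8 and 15.6 FPKM after knockout. The PBX sum had control values of 37.2, 36.3 and 35.9 FPKM, against 32.3 and 31.1 FPKM after knockout. The TGIF sum had control values of 47.5, 44.7 and 49.3 FPKM, against 54.2 and 49.7 FPKM after knockout. Both knockouts were thus below all controls in the MEIS and PBX sums and above them in the TGIF sum. Within the PBX sum, Pbx2 made up 67.4% to 75.8% in the controls and 83.0% to 84.3% in the knockouts. Meis1 made up 31.1% to 41.5% of the MEIS sum in the controls and 35.4% to 42.6% in the knockouts, so its share overlapped. These sums are given as descriptions, with no test.

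**Figure D5:**
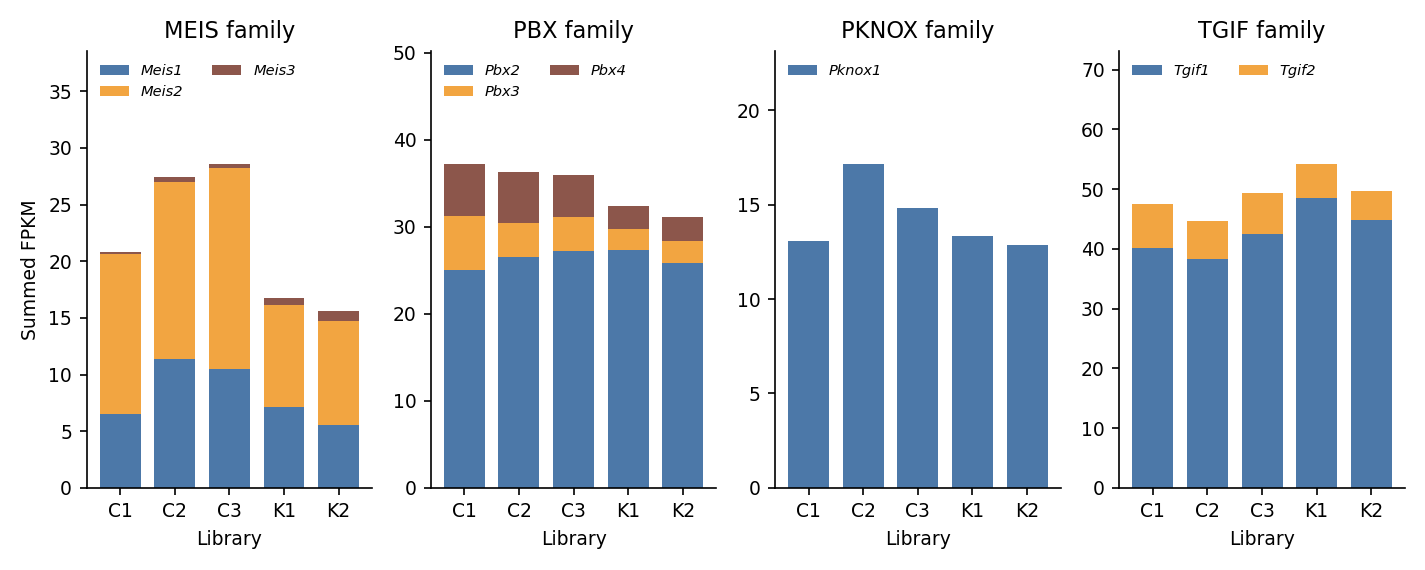
Stacked FPKM of the members of each family in control libraries 1 to 3 (C1, C2, C3) and knockout libraries 1 and 2 (K1, K2), on a linear axis from 0. The PBX sum is smaller in both knockouts (32.3 and 31.1 FPKM) than in the controls, with Pbx2 nearly level and the Pbx3 and Pbx4 parts smaller.

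Of the 11 HOXA genes, whose proteins bind the MEIS and PBX proteins, 6 passed the filter. Of these, Hoxa4, Hoxa5 and Hoxa7 passed it only through the controls, so nothing is read from a count over the list. Called as lower were Hoxa5, Hoxa7 and Hoxa9, where 5.97% of all tested genes fell. Hoxa9, the best known partner of MEIS1, reached 1 FPKM in every library, with control values of 18.1, 17.5 and 21.3 FPKM, against 6.498 and 6.982 FPKM after knockout (log2 change -1.36, limma adjusted p = 0.00853). The number of HOXA genes called as lower was 5 without control replicate 1, where 18% of all tested genes fell. It was 1 without control replicate 2, where 66 of all 11780 tested genes fell. These fits include Hoxa4, Hoxa5 and Hoxa7, so nothing is read from these counts either. The summed HOXA level had control values of 75.3, 48.7 and 54.8 FPKM, against 17.2 and 18.3 FPKM after knockout. Per unit of Meis1, Hoxa9 stood at 2.79, 1.54 and 2.02 in the controls and at 0.908 and 1.26 in the knockouts. Both knockout ratios lay below all control ratios.

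Genes reported as targets of HOXA9 or MEIS1 had 6 of 16 tested members that fell and 1 that rose, where 5.97% of all tested genes fell and 3.82% rose, and their median log2 change was -0.41. All 16 reached 1 FPKM in every library. Of those that fell, the 4 with the smallest p were Flt3, Cd34, Bcl2 and Sox4. Flt3, a cytokine receptor gene of early progenitors, had control values of 93.3, 96.3 and 83.5 FPKM, against 9.51 and 7.69 FPKM after knockout (log2 change -3.26, limma adjusted p = 0.00362). Sox4, a transcription factor gene, had control values of 15.7, 13.2 and 13.3 FPKM, against 7.46 and 6.32 FPKM after knockout (log2 change -0.93, limma adjusted p = 0.0195). The gene that rose was Lmo2, a transcriptional cofactor gene, named after its values were seen. Flt3 and Cd34 are also progenitor markers, whose values are given above, and the part of that shift in this list was not tested. Leaving out control 2 or control 3 left 2 or 3 targets that fell. Over all 11780 tested genes, 66 or 134 fell in those fits, against 703 with all libraries. Leaving out control 1 gave 3 targets that rose and 7 that fell, where 11.9% of all tested genes rose and 18% fell. No target rose without control 2, where 45 of all tested genes rose. Hif1a, a hypoxia factor gene reported as a MEIS1 target and picked out after its values were seen, had a log2 change of -0.012 with a 95% interval from -0.20 to 0.17.

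Partners of TGIF proteins (SMADs, corepressors, histone deacetylases and TGF-beta receptors) had none of 13 tested members called in limma and a median log2 change of 0.0024. At an unadjusted p under 0.05 there were 3 of the 13, where 29.8% of all tested genes were. The smallest p among them was that of the corepressor gene Ctbp2, chosen after its values were seen, with 21.5, 25.3 and 25.6 FPKM in controls against 34.6 and 33.0 FPKM after knockout (limma adjusted p = 0.0532). Without control replicate 1, 2 of these 13 rose and 2 fell, close to the 11.9% and 18% of all tested genes. Binding proteins and coactivators of PBX and MEIS had none of 10 called in limma, 1 at an unadjusted p under 0.05 (29.8% of all tested genes), and a median log2 change of -0.083. Pbxip1, which encodes a PBX-binding protein and was likewise chosen later, had control values of 15.2, 17.6 and 13.9 FPKM, against 13.4 and 14.8 FPKM after knockout. Without control replicate 1, 1 of these 10 rose and 1 fell, where 11.9% and 18% of all tested genes did.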

How the data were processed

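The authors' deposited files give 1 FPKM value per Ensembl gene and library. Per the submitters' processing notes, Cuffdiff, GSNAP, SAMtools and CASAVA 1.8.2 were used with the build mm9; annotation and strand setting were not stated there. In 16 genes a library held 999999999, which is no FPKM, and these were left out; none is a member. The 11780 genes that reached 1 FPKM in 2 or more of the 5 libraries were fitted on log2(FPKM + 1) in limma 3.58.1 under R 4.3.3 (trended empirical Bayes, Benjamini-Hochberg adjustment), a script tested on simulated data. The pseudocount understates changes of low genes. All members were named, with up to 4 called genes of each related list by smallest p, and the 3 nearest profiles to Meis1 and Pbx3; related and marker genes named outside this rule were chosen after their values were seen. The members and lists were chosen with earlier results of these data known. Gene positions, overlaps and 50-base runs come from GENCODE M21 (GRCm38), matched by gene ID. Settings tried were the pseudocount, filter, scaling, empirical Bayes step, replicate block and each library left out.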

Additional observations from a re-analysis of the deposited data

How the results depend on the processing

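Without each library in turn, the log2 change ran from -0.71 to -0.33 for Meis1, from -0.81 to -0.65 for Meis2, from -0.026 to 0.051 for Pbx2 (reversed at -0.020 without control replicate 1 and -0.026 without knockout replicate 1), from -0.77 to -0.49 for Pbx3 and from -0.89 to -0.77 for Pbx4. Over these fits between 0 and 4 members fell, 0 to 1398 of all genes rose and 0 to 2118 fell, 0 to 5 HOXA genes fell, 0 to 7 HOXA9 or MEIS1 targets fell and 0 to 3 rose, 0 to 2 TGIF partners rose and 0 to 2 fell, and 0 to 1 PBX and MEIS binding proteins rose and 0 to 1 fell. With fewer libraries the fits have fewer degrees of freedom, and a lone knockout is assumed to vary like the controls.

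With no filter on low values, Meis2 (-0.73) and Pbx4 (-0.81) kept their change and were not called, so 0 of 9 members fell. Of the 22571 genes then tested, 238 rose and 259 fell. Among them 6 HOXA genes and 4 targets fell, and 0 targets rose. With a mean of at least 5 FPKM, 8671 genes were tested, of which 491 fell and 358 rose. Pbx3, Pbx4 and Meis3 were not tested there, 1 of 6 members and 1 HOXA gene fell, and 1 TGIF partner rose. That partner count was also 1 after median-ratio scaling, quantile normalization and robust empirical Bayes. Of all calls, 39.0% rose as tested and 49.4% after median-ratio scaling.

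The replicate numbers are not stated to pair libraries, and the deviations of same-numbered libraries correlated across genes at 0.037 and 0.012. With 2 knockouts, the deviations of the knockouts mirror each other. Control 1 with knockout 2 and control 2 with knockout 1 thus had to give -0.037 and -0.012, and these values cannot decide on pairing. With the replicate number as a block, the changes were -0.65 for Meis2 and -0.89 for Pbx4, neither called. The antisense gene AL603984.1 was not called (-0.96, limma adjusted p = 0.140). In that fit 0 members and 0 HOXA genes fell, 1 target fell and 0 rose, and 12 of all genes rose and 43 fell. The block of control replicate 3 holds no knockout, so these changes equal those without control replicate 3. The block terms also leave fewer degrees of freedom. Pknox1, Tgif1 and Tgif2 kept their direction and were not called under any of the 14 alternatives. Absolute depth is unknown, so counting error of low members such as Meis3 cannot be given.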

Other observations

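The TALE class genes Pknox2, Irx1 to Irx6 and Mkx were below 1 FPKM in every library. Pknox2, the paralog of Pknox1, had control values of 0.623, 0.0311 and 0.00796 FPKM, highest in control replicate 1, against 0.286 and 0.439 FPKM after knockout. The 7 Iroquois and Mohawk genes reached at most 0.114 FPKM in any library, a value of Irx5. Irx5, which like Pknox2 was not tested and was named after its values were seen, had control values of 0.0837, 0.0971 and 0.114 FPKM, against 0.0137 and 0.0274 FPKM after knockout. Irx6 was listed at 0 throughout.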
